A study of Mus musculus with 10 samples.

Results

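Early lymphoid and multipotent progenitor genes were examined as a group of 10 genes named by symbol: *Dntt*, *Rag1*, *Satb1*, *Notch1*, *Ccr9*, *Cd27*, *Gpr171*, *Cd52*, *Emb* and *Cd34*. All 10 were found among the 26146 genes of the count table, and all 10 were among the 14165 genes that had enough counts to be tested. RNA was sequenced in bulk from sorted HSCs, which the sample labels give as Lin-Sca1+Kit+ (LSK) CD48-CD150+ cells, with 5 libraries from *Cited2* CTL mice and 5 from *Cited2* CKO mice. *Cited2* CTL mice carried *Cited2* fl/fl alleles without Cre, and *Cited2* CKO mice carried *Cited2* fl/fl alleles together with the *Vav-iCre* transgene, so that every mouse of both groups was floxed and on the C57BL/6J background. *Vav-iCre* is active throughout the hematopoietic system from development onwards, so deletion was neither restricted to HSCs nor timed. Both groups were young adults of 8 to 12 weeks.

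HSCs give rise to multipotent progenitors (MPPs), which lose long-term self-renewal and begin to express low levels of genes of the lineages they can still form. Lymphoid priming is the appearance of such transcripts of the lymphoid program before commitment. It is best known in FLT3-high progenitors, in which the antigen receptor genes' enzymes, lymphoid chromatin regulators and thymus-homing receptors are switched on under E proteins, IKAROS, RUNX1 and, on entry to the thymus, Notch signaling. CD34 and CD27, in contrast, are surface proteins whose levels change across the HSC and MPP hierarchy of the mouse. The comparison addressed here is whether the levels of these genes in the sorted HSCs differed between the genotypes, library by library.

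The sequence just before the start of a gene is where lymphoid factors can act, so 3 upstream stretches are shown for the members that encode lymphoid nuclear proteins. They are the 250 bases before the annotated start of *Rag1* (chr2:101649533-101649782, minus strand), *Dntt* (chr19:41029025-41029274, plus strand) and the most upstream start of *Satb1* (chr17:51833291-51833540, minus strand), from RefSeq on GRCm38.p6, written 5′ to 3′ along the gene. Capitals mark matches on either strand to an E2A-type E-box (CACCTG or CAGGTG), a RUNX core (TGTGGT or ACCACA) or an RBPJ core (TGGGAA or TTCCCA).
*Rag1*: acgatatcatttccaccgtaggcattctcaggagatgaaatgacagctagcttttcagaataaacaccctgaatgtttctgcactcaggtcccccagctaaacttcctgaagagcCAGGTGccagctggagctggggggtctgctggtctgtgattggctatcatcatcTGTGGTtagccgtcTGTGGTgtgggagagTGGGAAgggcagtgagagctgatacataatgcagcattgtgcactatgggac
*Dntt*: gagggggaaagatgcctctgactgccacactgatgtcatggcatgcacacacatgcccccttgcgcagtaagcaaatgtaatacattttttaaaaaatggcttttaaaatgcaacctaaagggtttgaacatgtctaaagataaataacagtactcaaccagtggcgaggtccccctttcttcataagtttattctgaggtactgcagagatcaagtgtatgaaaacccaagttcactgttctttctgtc
*Satb1*: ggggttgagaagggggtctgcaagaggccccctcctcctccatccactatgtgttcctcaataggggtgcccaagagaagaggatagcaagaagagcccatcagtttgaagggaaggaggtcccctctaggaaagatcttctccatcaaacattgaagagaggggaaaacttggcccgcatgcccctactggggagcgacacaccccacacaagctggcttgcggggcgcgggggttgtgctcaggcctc
The *Rag1* stretch held 4 matches: an E-box at 135 bases before the start, RUNX cores at 81 and 67 bases and an RBPJ core at 52 bases. The stretches of *Dntt* and of the most upstream start of *Satb1* held none of the 3 motifs. A RefSeq promoter was found for 8 of the 10 members, with 12 stretches in all because *Satb1* has several annotated starts, and none was found for *Cd52* and *Gpr171*. An E-box match lay in 4 of the 12 stretches, those of *Rag1*, *Ccr9*, *Emb* and 1 start of *Satb1*, and in 17.2% of the 32851 stretches of the same length before all RefSeq starts. A RUNX core lay in 1 of the 12 (*Rag1*) and in 14% of all stretches, and an RBPJ core in 2 of the 12 (*Rag1* and another start of *Satb1*) and in 21.6% of all. These matches describe letters only, and binding was not measured.

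Library totals ranged from 3058690 to 4548795 counts in the *Cited2* CTL group and from 3500215 to 4315029 counts in the *Cited2* CKO group, and the 10 genes together took between 0.103% and 0.122% of each total. Levels are given as CPM, counts scaled to a common library size after TMM normalization. *Cited2*, the deleted gene, lay between 101 and 222 CPM in *Cited2* CTL libraries. It lay between 3.80 and 8.30 CPM in 4 *Cited2* CKO libraries, but at 120 CPM (508 counts) in the library labelled CKO 3. That library was kept under its label, and results that depend on it are also given without it. The genes of the sort gate were present in every library, with *Kit* at 580.0 ± 62.4 and 500.1 ± 39.0 CPM and *Slamf1*, which encodes CD150, at 106 ± 14.1 and 119.7 ± 10.3 CPM in control and deleted HSCs (SD, n = 5 per genotype).

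None of the 10 genes passed the test between the genotypes (edgeR's quasi-likelihood test, adjusted p under 0.05 and fold change above 20%), which 32 of the 14165 tested genes, or 0.226%, did pass. The fitted difference was positive, that is higher in *Cited2* CKO HSCs, for 8 of the 10 and negative for *Cd27* and *Cd34*, and its median was 0.26 on the log2 scale beside 0.0065 for all tested genes. That median was 0.18 in the fit corrected for the GC and length of genes and 0.19 without CTL 1. It was 0.47 without CTL 4 and 0.45 in limma-voom. An unadjusted p under 0.05 with a higher level in *Cited2* CKO HSCs was found for 4 of the 10, *Cd52*, *Emb*, *Satb1* and *Gpr171*, and for 5.8% of all tested genes. No member had such a p with a lower level. The count was 2, *Cd52* and *Emb*, without CKO 2 and again without CKO 5, beside 4.39% and 6.05% of all tested genes. When the fit was corrected for the GC and length of genes the count was 1, *Cd52*, beside 3.22%. Without CTL 5 it was 5, with *Dntt* and *Ccr9* added and *Gpr171* dropped, beside 5.58% of all tested genes. With the replicate number as a block it was also 5, with *Dntt* added, beside 5.64%. In bulk RNA, more cells that carry a transcript and more of the transcript per cell cannot be told apart, which holds for every level given here.

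**Figure D1:**
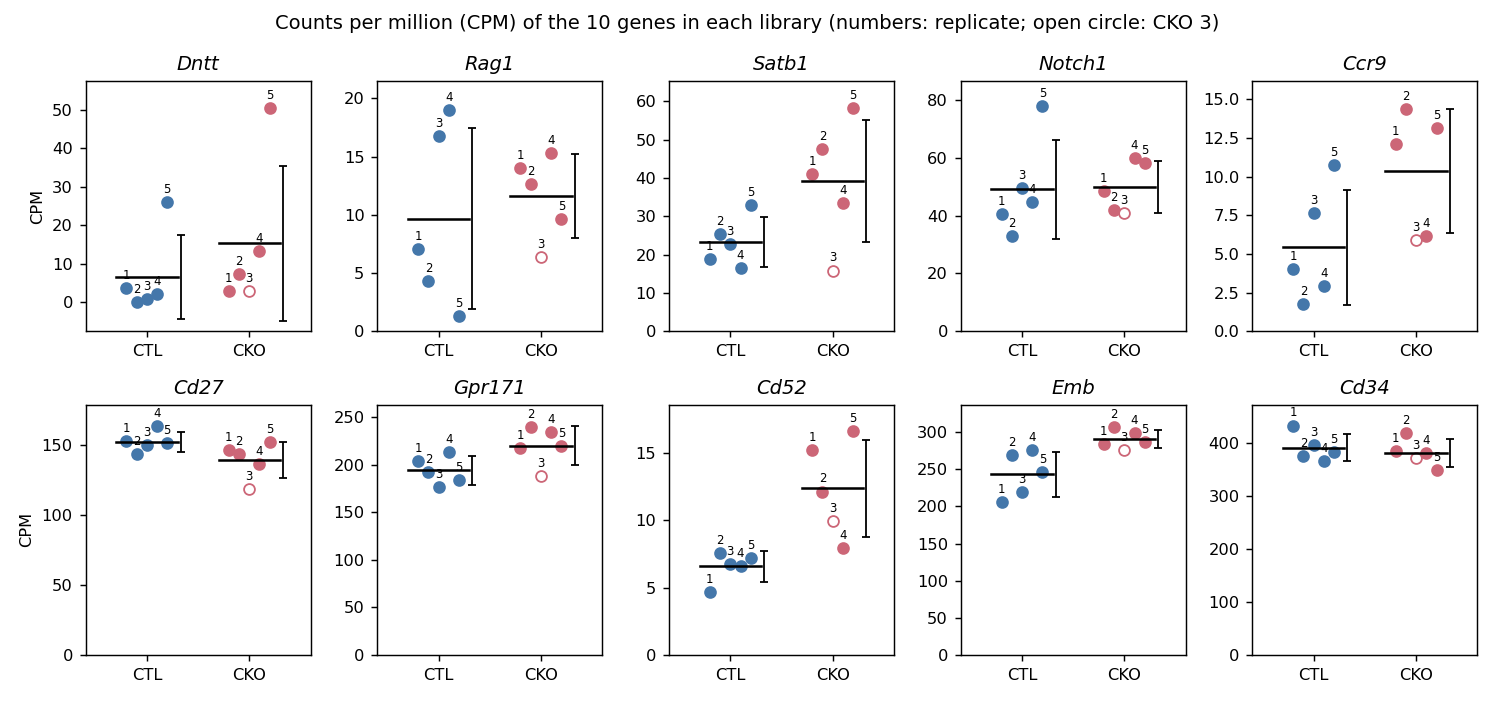
Level of each of the 10 genes (CPM, linear axes that differ between genes) in the 5 *Cited2* CTL and 5 *Cited2* CKO libraries. Points are libraries, labelled by replicate number, with CKO 3 as an open circle, lines at the mean and bars of 1 SD to each side. *Cd52* is the gene whose *Cited2* CKO libraries, from 7.94 to 16.6 CPM, all lie above its *Cited2* CTL libraries, from 4.68 to 7.58 CPM.

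The enzymes of antigen receptor gene assembly were low and varied widely between mice. *Dntt* encodes terminal deoxynucleotidyl transferase, which adds bases without a template at the joints of antigen receptor genes and is an early mark of lymphoid priming. Its locus spans 41029275 to 41059525 on chromosome 19 of GRCm38. The gene was at 3.68, 0, 0.882, 2.19 and 26.0 CPM in CTL 1 to CTL 5, which rest on 11, 0, 3, 9 and 119 counts. The *Cited2* CKO libraries CKO 1 to CKO 5 had 2.85, 7.42, 2.84, 13.2 and 50.5 CPM, from 12, 30, 12, 45 and 219 counts. CTL 5 and CKO 5 thus stood far above the other libraries of their genotype, and the groups overlapped. The means were 6.56 ± 10.98 and 15.4 ± 20.1 CPM (SD, n = 5), and the log2 fold change was 1.195 with a standard error of 1.02 and a 95% interval from -0.98 to 3.37 (adjusted p = 0.667, edgeR). It was 3.20 without CTL 5 and -0.029 without CKO 5, so its size or sign rested on 1 library.

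*Rag1* encodes the catalytic subunit of the recombinase that cuts antigen receptor genes, and lies on chromosome 2 from 101638282 to 101649501. Its *Cited2* CTL libraries had 7.02, 4.29, 16.8, 19.0 and 1.31 CPM and its *Cited2* CKO libraries 14.02, 12.6, 6.38, 15.3 and 9.68 CPM. CTL 5, the *Cited2* CTL library with the most *Dntt*, had the least *Rag1*. The *Cited2* CKO values lay within the range of the *Cited2* CTL values. The log2 fold change was 0.26 (standard error 0.54, 95% interval from -0.91 to 1.43, adjusted p = 0.881, edgeR), and without CTL 5 it was -0.029. Exons of *Rag1* overlap those of *B230118H07Rik* on the same strand, which had 70.2 and 77.6 CPM in the control and deleted groups, so how counting divided the reads of the pair is uncertain.

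Spread between mice ranged from about counting error to several times more among the members. The coefficient of variation over the 5 *Cited2* CTL libraries was 167% for *Dntt*, 80.6% for *Rag1* and 68.2% for *Ccr9*, where counting error alone gives 18.8%, 16.7% and 21.7%. For *Cd27* it was 4.71% beside 4.15% from counting, and for *Cd52* 17.1% beside 19.8%. *Cd27* and *Cd52* thus varied between control mice about as much as counting gives, and *Dntt*, *Rag1* and *Ccr9* varied several times more. So did *Notch1* (35.0% beside 7.22% from counting) and *Emb* (12.5% beside 3.27%), which had more counts.

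*Satb1* and *Notch1* encode nuclear and signaling regulators of the lymphoid program. SATB1 organizes chromatin loops and is used by HSCs and progenitors for T and B lineage potential. *Satb1* lies on chromosome 17 from 51736187 to 51833290. *Satb1* was at 18.7, 25.3, 22.6, 16.6 and 33.04 CPM in CTL 1 to CTL 5. In CKO 1 to CKO 5 it was at 41.1, 47.5, 15.8, 33.5 and 58.3 CPM. The libraries CKO 1, 2, 4 and 5 all lay above the highest *Cited2* CTL library, while CKO 3 was the lowest of the 10 libraries. Over all libraries the means were 23.2 ± 6.43 and 39.3 ± 15.9 CPM (SD, n = 5), and the log2 fold change of 0.75 (standard error 0.29, 95% interval from 0.12 to 1.38) had an adjusted p of 0.312 (edgeR). Without CKO 3 the log2 fold change was 0.95 with a standard error of 0.22 and an adjusted p of 0.101 (edgeR).

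NOTCH1 is the receptor through which thymic ligands commit progenitors to the T lineage. *Notch1* lies on chromosome 2 from 26457903 to 26516663, where its exons overlap an opposite-strand gene, *0610009E02Rik*, at 8.05 and 9.31 CPM in the control and deleted groups. Its libraries had 40.5, 33.1, 49.7, 44.6 and 77.9 CPM in *Cited2* CTL and 48.5, 42.1, 40.9, 60.0 and 58.3 CPM in *Cited2* CKO HSCs. The highest library was CTL 5, and the *Cited2* CKO libraries lay inside the *Cited2* CTL range. The means of 49.1 ± 17.2 and 49.9 ± 8.90 CPM (SD, n = 5) gave a log2 fold change of 0.02, with a 95% interval from -0.43 to 0.47 (adjusted p = 0.981, edgeR).

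The receptor genes *Ccr9*, *Cd27* and *Gpr171* differed in level and in spread. CCR9 binds the chemokine CCL25 and guides lymphoid progenitors to the thymus, and it is also a marker of plasmacytoid dendritic cells. *Ccr9* lies on chromosome 9 from 123678439 to 123784330. *Ccr9* had 4.01, 1.77, 7.64, 2.92 and 10.7 CPM in *Cited2* CTL and 12.1, 14.3, 5.91, 6.17 and 13.1 CPM in *Cited2* CKO libraries. CKO 1, 2 and 5 were above every *Cited2* CTL library, and CKO 3 and CKO 4 were within their range. The log2 fold change was 0.93 (standard error 0.49, 95% interval from -0.13 to 1.99, adjusted p = 0.457, edgeR), on means of 5.41 ± 3.69 and 10.3 ± 4.00 CPM (SD, n = 5).

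CD27 is a costimulatory receptor of the TNF receptor family that is also found on HSCs and progenitors. *Cd27* lies on chromosome 6 from 125232622 to 125237010. Its values were 153, 143, 149.9, 163 and 151 CPM in *Cited2* CTL and 146, 143, 118, 137 and 152 CPM in *Cited2* CKO libraries. CKO 3 was the lowest library and the groups overlapped. The means of 152 ± 7.18 and 139 ± 12.98 CPM (SD, n = 5) gave a log2 fold change of -0.13 (standard error 0.08, 95% interval from -0.30 to 0.05, adjusted p = 0.542, edgeR).

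*Gpr171* encodes a G protein-coupled receptor expressed in blood cells, and lies on chromosome 3 from 59096448 to 59101821. It had 204, 192, 176, 213 and 184 CPM in *Cited2* CTL and 218, 240.0, 188, 235 and 219.6 CPM in *Cited2* CKO libraries. CKO 1, 2, 4 and 5 lay above every *Cited2* CTL library and CKO 3 within their range. The log2 fold change was 0.18 (standard error 0.08, 95% interval from 0.01 to 0.35), with an adjusted p of 0.365 (edgeR) on means of 194 ± 15.02 and 220 ± 20.4 CPM (SD, n = 5).

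The surface glycoproteins held the member with separated groups. CD52 is a small lipid-anchored glycoprotein abundant on lymphocytes, and *Cd52* lies on chromosome 4 from 134082448 to 134095082. The opposite-strand gene *Crybg2*, whose exons overlap it, had at most 13 counts. Its libraries had 4.68, 7.58, 6.76, 6.58 and 7.22 CPM in *Cited2* CTL, from 14, 30, 23, 27 and 33 counts, and 15.2, 12.1, 9.93, 7.94 and 16.6 CPM in *Cited2* CKO HSCs, from 64, 49, 42, 27 and 72 counts. Every *Cited2* CKO library was above every *Cited2* CTL library, by a margin that was smallest for CKO 4. This was so for 1 of the 10 members and for 1.35% of all tested genes. The means were 6.56 ± 1.12 and 12.4 ± 3.59 CPM (SD, n = 5). The log2 fold change of 0.91 (standard error 0.31, 95% interval from 0.24 to 1.58), a 1.88-fold difference, had an unadjusted p of 0.0115 and an adjusted p of 0.247 (edgeR).

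EMB, or embigin, is an immunoglobulin superfamily protein that accompanies monocarboxylate transporters to the membrane. *Emb* lies on chromosome 13 from 117208536 to 117274415. Its libraries had 206, 269, 219.6, 276 and 246 CPM in *Cited2* CTL and 285, 307, 276, 299.6 and 287 CPM in *Cited2* CKO HSCs. CKO 3, at 275.6 CPM, lay just below the highest *Cited2* CTL library, at 275.9 CPM, and the other *Cited2* CKO libraries lay above all *Cited2* CTL libraries. On means of 243 ± 30.3 and 291 ± 12.5 CPM (SD, n = 5) the log2 fold change was 0.26, with a standard error of 0.08 and a 95% interval from 0.08 to 0.43. It had the smallest p of the 10 members, 0.00801 unadjusted and 0.225 adjusted (edgeR).

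CD34 is a sialomucin that is low on the most quiescent adult mouse HSCs and rises on entry into the MPP compartments. The gate given in the labels does not name CD34. In their cell counts the authors used CD34 to split CD48-CD150+ LSK cells without FLT3 into HSCs and early progenitors (MPP1). Whether the sequenced HSCs held both was not tested. *Cd34* lies on chromosome 1 from 194938819 to 194961279. It was at 432, 376, 396, 366 and 382 CPM in *Cited2* CTL and 384, 419, 372, 380.1 and 348 CPM in *Cited2* CKO libraries, with overlapping groups. The means were 390 ± 25.9 and 380 ± 25.7 CPM (SD, n = 5), and the log2 fold change of -0.04 (standard error 0.07) had a 95% interval from -0.18 to 0.11 (adjusted p = 0.859, edgeR). That interval is the narrowest among the 10 genes. The exons of *Cd34* overlap an opposite-strand gene, *Gm16897*, at 49.3 and 45.4 CPM in the control and deleted groups. Whether counting used strand is not stated in the sources used here.

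**Figure D2:**
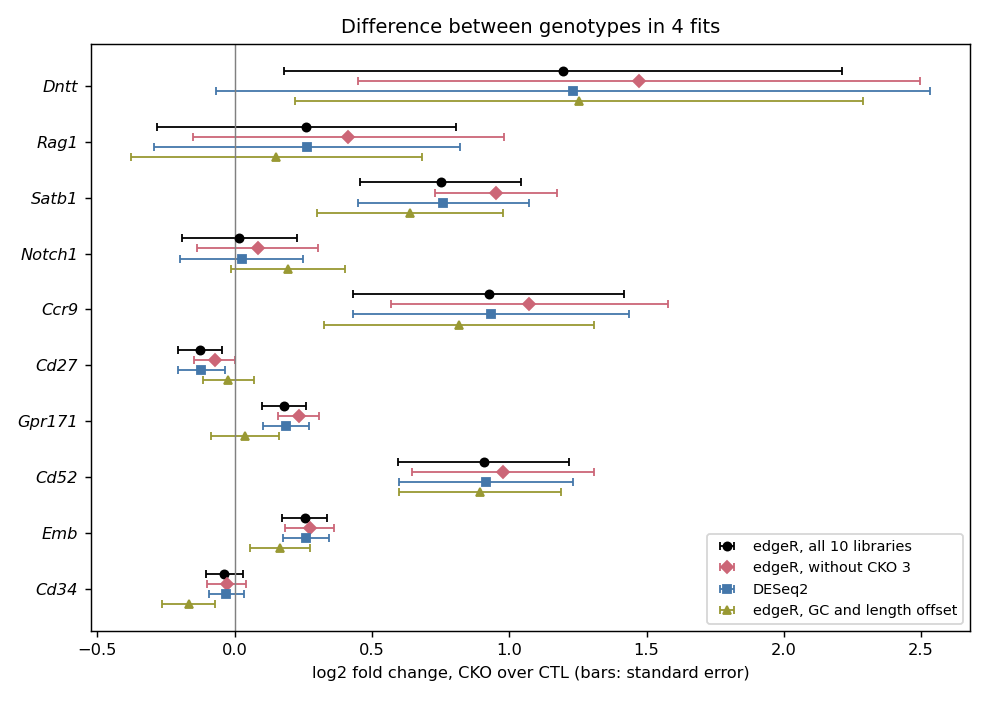
Log2 fold change (*Cited2* CKO over *Cited2* CTL, x axis) of the 10 genes with its standard error as bars, in 4 fits: edgeR over all libraries, edgeR without CKO 3, DESeq2, and edgeR with a per-library correction (offset) for GC and length. The points lie to the right of 0 for 8 genes and to the left for *Cd27* and *Cd34* in each of the 4, and *Dntt* has the widest bars.

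The library labelled CKO 3, in which *Cited2* was retained, was the lowest *Cited2* CKO library for 8 of the 10 members, the exceptions being *Cd52* and *Cd34*. Without it, each of the 4 other *Cited2* CKO libraries was above every *Cited2* CTL library for 4 members, *Satb1*, *Cd52*, *Emb* and *Gpr171*, and for 2.31% of all tested genes. In the fit without it, the same 4 members had an unadjusted p under 0.05 with a higher level in *Cited2* CKO HSCs, beside 5.19% of 14372 tested genes. Their log2 fold changes were 0.95 for *Satb1*, 0.98 for *Cd52*, 0.27 for *Emb* and 0.23 for *Gpr171*, with adjusted p of 0.101, 0.256, 0.249 and 0.226 (edgeR), so none was called there either. DESeq2's Wald test over all libraries called 2.6% of the 12515 genes with an adjusted p, and none of the 10 members. Its smallest adjusted p among them was 0.0684, for *Emb*. When edgeR was corrected for the GC and length of genes, *Cd52* alone of the members kept an unadjusted p under 0.05 (log2 fold change 0.89, adjusted p = 0.570, edgeR). Such a p with a higher level was found for 3.22% of the genes tested in that fit. There the log2 fold changes of *Satb1*, *Emb* and *Gpr171* were 0.64, 0.17 and 0.04.

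**Figure D3:**
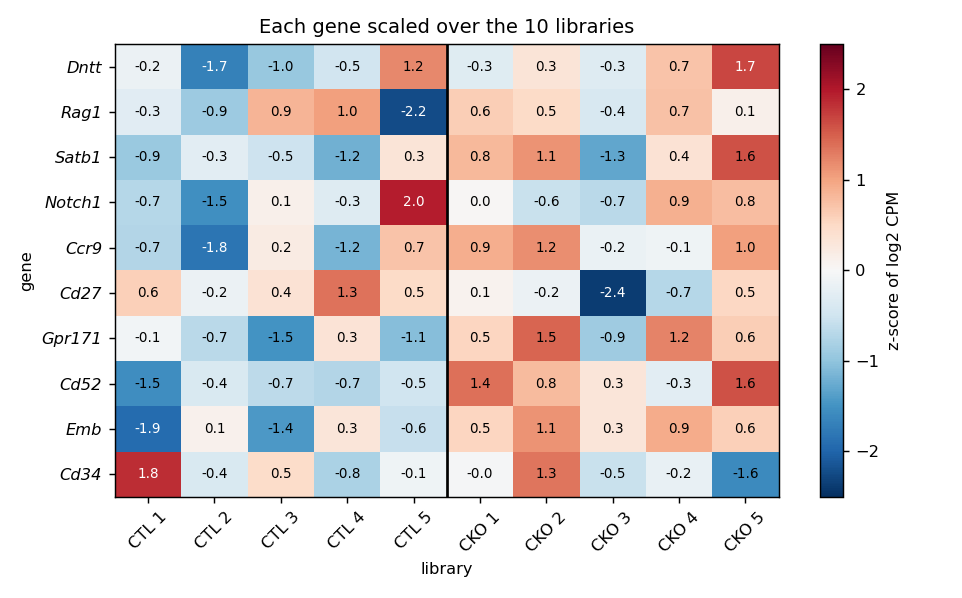
Level of each gene (rows) in each of the 10 libraries (columns) as a z-score, the number of SDs of its log2 CPM from its own mean over all libraries. CTL 5 and CKO 5 are high for *Dntt*, CTL 5 is low for *Rag1*, and CKO 3 is low for *Satb1* and *Cd27*.

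The members did not share 1 pattern across libraries. CTL 5 was the highest *Cited2* CTL library for *Dntt*, *Satb1*, *Ccr9* and *Notch1* and the lowest for *Rag1*, and CKO 5 was the highest *Cited2* CKO library for *Dntt*, *Satb1*, *Cd52* and *Cd27*. Likeness was measured for the 8 members with a mean of at least 10 CPM as the root mean square distance between z-scored log2 CPM over the 10 libraries, where 0 is an identical pattern. The closest pairs were *Dntt* and *Notch1* (0.628), *Emb* and *Gpr171* (0.765) and *Dntt* and *Satb1* (0.843), and the least alike were *Emb* and *Cd34* (1.63). Of 10928 other genes at 10 CPM or more, the nearest to *Cd34*, the most highly expressed member, were *Zfp276* (0.409), *Meis1* (0.441) and *Gm19592* (0.464). These distances describe the same 10 libraries and have no test.

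Levels of different genes are comparable only per length, so CPM was divided by the deposited gene length to give RPKM. In *Cited2* CTL HSCs the order was *Cd34* at 149 ± 9.87 RPKM, *Cd27* at 96.6, *Emb* at 92.8, *Gpr171* at 87.2, *Cd52* at 13.1 ± 2.23, *Notch1* at 5.18, *Satb1* at 3.42, *Dntt* at 3.08, *Rag1* at 1.45 and *Ccr9* at 1.23 RPKM (means, SD where given, n = 5). *Cd34* did not overlap with *Cd27*, and *Cd52* was separate from the genes on both sides. The neighbors *Cd27*, *Emb* and *Gpr171* overlapped with each other, as did the neighbors from *Notch1* to *Ccr9*. *Cd34*, the gene of a protein that marks the MPP side of the hierarchy, stood at percentile 98.2 of the tested genes, while *Rag1* and *Ccr9*, which act in lymphoid precursors, stood at percentiles 11.2 and 9.71. In *Cited2* CKO HSCs the order of means was *Cd34* at 145, *Emb* at 111, *Gpr171* at 98.9, *Cd27* at 88.5, *Cd52* at 24.6, *Dntt* at 7.21, *Satb1* at 5.78, *Notch1* at 5.26, *Ccr9* at 2.35 and *Rag1* at 1.74 RPKM.

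**Figure D4:**
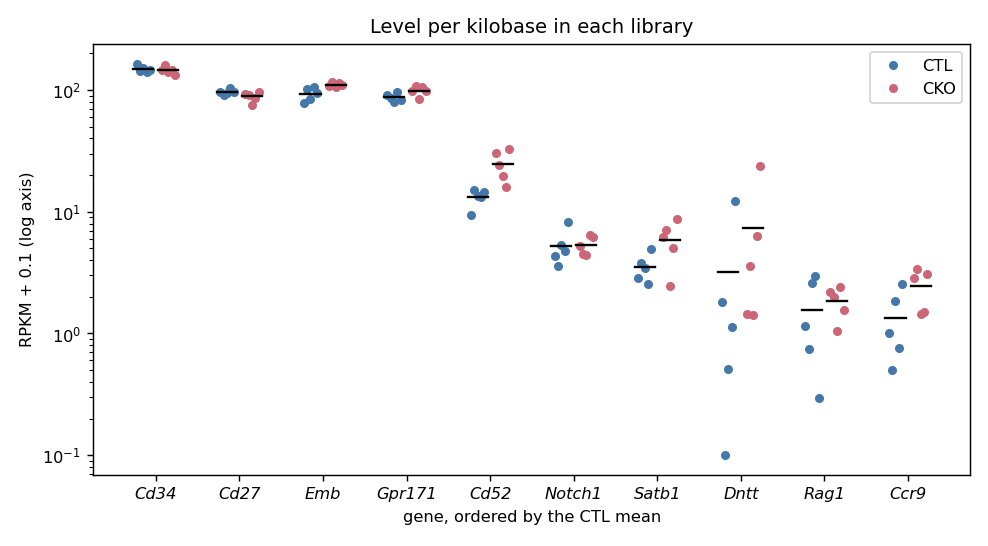
Level per gene length (RPKM plus 0.1, log axis) of the 10 genes in each library, with *Cited2* CTL and *Cited2* CKO libraries side by side and the mean of each as a bar. *Cd34*, *Cd27*, *Emb* and *Gpr171* lie well above *Cd52*, and the other 5 genes lie below it, with *Dntt* spread widest.

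The other genes of the same pathways were taken from lists that held none of the 10 members. Of 27 tested lymphoid priming genes, 1 passed the test and was higher in *Cited2* CKO HSCs, none passed lower, and the median log2 fold change was 0.13. With 1 library left out, 1 passed in 4 of 10 fits and none in the rest. An unadjusted p under 0.05 was found for 6 higher and 3 lower of the 27 genes (edgeR). Over all 14165 tested genes, 821 were higher and 1003 lower by that measure. *Flt3*, which marks lymphoid-primed MPPs, was at 123 ± 18.5 CPM in control and 96.0 ± 8.05 CPM in deleted HSCs (SD, n = 5). Its log2 fold change was -0.36 (unadjusted p = 0.00556, adjusted p = 0.194, edgeR). That unadjusted p, for a lower level, was smaller than that of any of the 10 members. *Il7r*, the interleukin 7 receptor gene, was at 4.91 ± 5.88 and 5.91 ± 4.21 CPM, and *Rag2*, the partner of *Rag1*, at 2.87 ± 2.22 and 5.89 ± 3.56 CPM, neither past the test. *Flt3*, *Il7r* and *Rag2* were named after their values were seen. DESeq2 called 2 higher and 1 lower of these 27 genes, with *Ikzf2* among the higher ones and *Tcf3* as the lower one.

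None of 39 tested genes of the Notch pathway and none of 15 tested partners of V(D)J joining passed edgeR's test, with medians of -0.03 and 0.11. DESeq2 called *Fbxw7* higher and *Mib2* lower among the Notch genes and none of the joining genes, and limma-voom called none of either. An unadjusted p under 0.05 was found for 3 higher and 5 lower Notch genes and for 1 higher and 1 lower joining gene (edgeR). Over all 14165 tested genes, 821 were higher and 1003 lower by that measure. The smallest p among the Notch genes belonged to *Mib2*, a ubiquitin ligase of Notch ligands, at 64.8 ± 7.25 and 43.6 ± 4.53 CPM (log2 fold change -0.57, adjusted p = 0.0781, edgeR), and to *Fbxw7*, a ubiquitin ligase subunit that targets the cleaved receptor, at 23.6 ± 6.20 and 38.1 ± 3.51 CPM (0.70, adjusted p = 0.130). Among the joining genes they belonged to *Poll*, a DNA polymerase, at 36.5 ± 5.00 and 24.4 ± 3.97 CPM (-0.58, adjusted p = 0.168, edgeR), and *Xrcc5*, which encodes KU80, at 126 ± 10.7 and 145 ± 13.2 CPM (0.20, adjusted p = 0.354).

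Among 17 tested relatives and partners of members such as SATB1, CD27, CCR9, CD34 and EMB, 2 rose, among them *Selp*, none fell, and the median was -0.0018. *Selp*, which encodes P-selectin, rose from 63.7 ± 24.4 to 195 ± 37.2 CPM (log2 fold change 1.61, adjusted p = 0.00727, edgeR). *Ccl25*, the ligand of CCR9, was at 12.4 ± 4.44 and 13.98 ± 3.67 CPM. *Cd70*, the ligand of CD27, did not pass the filter on low counts and had at most 3 counts in any library. *Ccl25* and *Cd70* were named as the ligands of members after their values were seen. Of 23 tested MPP and cycling genes, 3 rose and none fell, with a median of 0.10. Among them were *Cd48*, from 21.6 ± 5.53 to 49.0 ± 9.15 CPM (log2 fold change 1.18, adjusted p = 0.0264, edgeR), and *Ccnd1*, the cyclin D1 gene, from 69.5 ± 9.47 to 112 ± 18.7 CPM (0.69, adjusted p = 0.0456). An unadjusted p under 0.05 was found for 8 higher and 2 lower of these 23 genes, beside 821 higher and 1003 lower of all 14165 (edgeR). CD48 is absent from the sorted HSCs by the gate and present on most MPPs. Of the 19 tested genes of long-term HSCs and the gate, *Cd48* rose and none fell, with a median of -0.05. Corrected for the GC and length of genes, *Selp* kept an adjusted p of 0.0221, and *Cd48* and *Ccnd1* were each at 0.173 (edgeR). *Ccnd1* was called in none of the 10 fits that left out 1 library (adjusted p from 0.0521 without CKO 3 to 0.143 without CTL 2, edgeR), nor in limma-voom (0.0583). *Cd48* was called in 4 of the 10, with adjusted p from 0.0156 to 0.105 (edgeR), and not without CTL 1, 2 or 4 or CKO 1, 2 or 5. *Selp* was called in all 10, with adjusted p up to 0.0406.

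**Figure D5:**
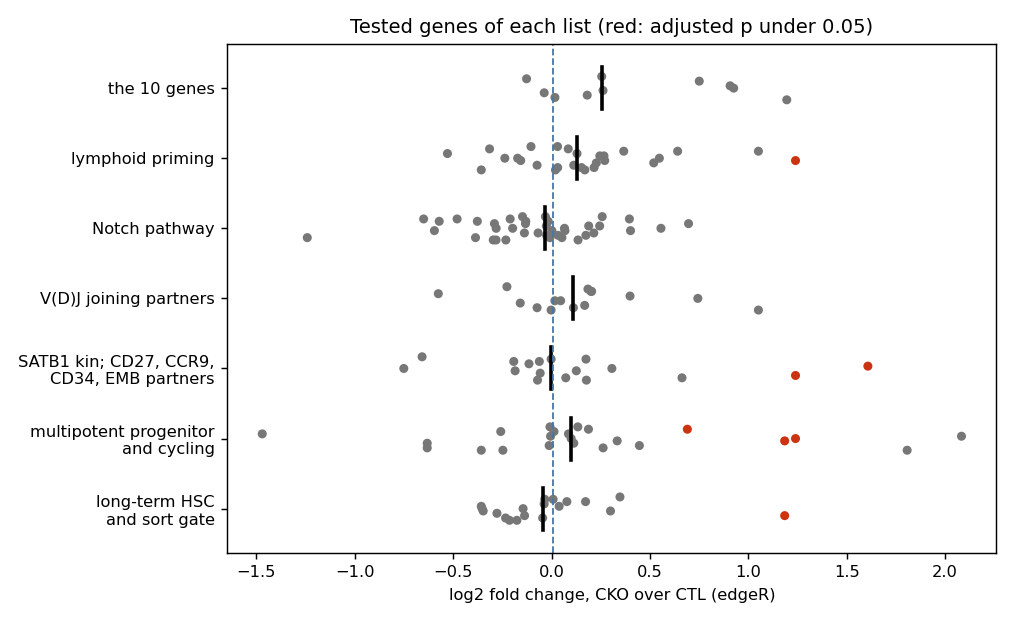
Log2 fold change (*Cited2* CKO over *Cited2* CTL, x axis) of the 10 members and of every tested gene of 6 lists that hold no member (rows). Each point is 1 gene, black bars give the list median, the dashed line gives the median of all tested genes, and called genes are red. Called genes, *Selp*, *Cd48* and *Ccnd1* among them, all lie to the right of 0, and no member is red.

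Markers of other blood cells were measured as the summed CPM of marker lists, since such cells carry several of the members. B cell markers lay between 58.5 and 103 CPM in *Cited2* CTL and 65.3 and 84.1 CPM in *Cited2* CKO libraries, T cell markers between 24.8 and 54.4 and between 19.1 and 37.3 CPM, and NK cell markers between 66.2 and 112 and between 97.7 and 126 CPM. Plasmacytoid dendritic cell markers other than *Ccr9* lay between 0.244 and 10.1 CPM and between 0.588 and 10.9 CPM. Granulocyte and monocyte markers, between 413 and 984 CPM in *Cited2* CTL and 389 and 718 CPM in *Cited2* CKO libraries, were highest in CTL 5 and CKO 5, the libraries with the most *Dntt*. Some of these markers, *Mpo*, *Elane* and *Ctsg* among them, are also in the list of MPP and cycling genes. Erythroid markers lay between 47.6 and 116 and between 46.8 and 66.4 CPM, megakaryocyte markers between 1026 and 1128 and between 908 and 1101 CPM, and endothelial and stromal markers between 117 and 144 and between 126 and 166 CPM. The erythroid sum was also highest in CTL 5 (116 CPM) and in CKO 5 (66.4 CPM, beside 65.4 CPM in CKO 1). Among *Cited2* CTL libraries, B cell and plasmacytoid dendritic cell markers were highest in CTL 5 too. Among *Cited2* CKO libraries, neither was highest in CKO 5. The 19 genes of long-term HSCs and the gate, *Cd48* and *Flt3* included, summed to between 3591 and 3993 CPM in *Cited2* CTL and between 3228 and 3632 CPM in *Cited2* CKO libraries. No marker was without counts in all 10 libraries, but 6 of 10 B cell, 8 of 10 T cell, 7 of 8 NK cell and all 5 of these plasmacytoid dendritic cell markers had no count in at least 1 library. The T cell receptor complex genes *Cd3e*, *Cd3d* and *Cd3g* had at most 7, 4 and 2 counts in a library, while *Cd247*, a chain that NK cells share, had 16 to 83. Of the B cell receptor chains, *Cd79a* had 11 counts in CTL 5, 2 in CKO 3 and none elsewhere, while *Cd79b* had 140 to 322 counts. No gene of the marker lists passed the test other than *Cd48*. The part of these cells in the members' levels was not tested.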

How the data were processed

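Single-ended reads were aligned by the authors to GRCm38 (mm10 in the labels) using HISAT2. Raw counts of reads for each gene symbol, made with Rsubread, were deposited, and a second table gave gene lengths in bases. The annotation, the treatment of reads matching several genes and the use of strand in counting are not given in the sources used here. Libraries were grouped by the genotype in their labels, wildtype for *Cited2* CTL and *Cited2* KO for *Cited2* CKO. The floxed alleles, the Cre transgene and the background are as the authors give them. Each genotype had 5 libraries, 1 mouse each.

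Genotypes were compared with edgeR 4.0.16 under R 4.3.3 (filterByExpr, TMM, robust quasi-likelihood F test, Benjamini-Hochberg adjustment over 14165 genes, adjusted p under 0.05 and fold change above 20%). Standard errors were derived from the F statistic. The common biological coefficient of variation was 25.3%. CPM divides by the library total over tested genes scaled by TMM, RPKM further by gene length, and log2 CPM used a prior count of 2. Loci and overlaps came from GENCODE M21 on GRCm38, promoters from RefSeq on GRCm38.p6. Replicate libraries of a genotype differed beyond counting noise (chi-square per gene 4.66 to 12.3 over 20 pairs). Depth was limited to the deposited totals, so genes under about 10 CPM rest on few counts.

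The 10 members, the lists, the markers and the motifs were chosen with earlier results of these data known. Named from each list were all called genes or, where none was called, the 2 with the smallest p. Other genes are stated as named after their values were seen. A single list gene, included in the counts, is not reported here. Alternatives were DESeq2 1.42.0 (Wald test), DESeq2 size factors, no filter, at least 10 counts in every library, limma-voom from limma 3.58.1, a block for the replicate number, a per-library loess offset for GC and length (span 50%), that offset with the block, each library left out, and an adjusted p of 0.1. Scripts were tested on simulated data for *Cited2* CKO against *Cited2* CTL (13620 genes): edgeR recovered 91 of 100 genes changed 2-fold and 100 of 100 changed 4-fold with 11 false calls. The changed genes were drawn only from genes with mean levels above those of *Dntt*, *Rag1*, *Ccr9* and *Cd52*. Recovery at the levels of these 4 members was therefore not tested.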

Additional observations from a re-analysis of the deposited data

Results flagged for a closer look

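Among the 20 groups tested (10 genes in 2 genotypes of 5 libraries), 2 held a library that stood far from the others. Both were groups of the same gene, *Dntt*, and no chance rate is given beside them. The count of 2 in 20 is therefore not read as an excess. *Dntt* was at 26.04 CPM in CTL 5, with the other *Cited2* CTL libraries between 0 and 3.678 CPM and a gap of 0.859 of the whole range. It was at 50.46 CPM in CKO 5, with the other *Cited2* CKO libraries between 2.836 and 13.23 CPM and a gap of 0.782. Both libraries had the highest summed granulocyte and monocyte markers of their genotype, and also the highest summed erythroid markers. Of the granulocyte and monocyte markers, *Mpo*, *Elane* and *Ctsg* had 867, 285 and 164 counts in CTL 5 and 470, 71 and 87 in CKO 5. These genes, named after their values were seen, are also in the list of MPP and cycling genes. The part of mature cells or of MPPs in the *Dntt* levels was not tested.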

How the results depend on the processing

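The count of members called was 0 in every alternative, including an adjusted p of 0.1, with the lowest adjusted p for *Emb* in DESeq2 (0.0684). With at least 10 counts in every library, 7 members could be fitted, without *Dntt*, *Rag1* and *Ccr9*. Over all genes, 32 were called, and 325 in DESeq2, 8 with the GC and length offset, 13 with the offset and the replicate block, 127 at an adjusted p of 0.1, and from 8 (without CKO 2) to 42 (without CKO 3) with 1 library left out. CTL 1, 2, 3 and 4 and CKO 1, 2 and 5 each lowered that count by more than 1.5 times, to 16, 11, 16, 10, 14, 8 and 14. List genes called numbered 4, and 11 in DESeq2, 1 with the offset, 2 with the offset and block, 7 at an adjusted p of 0.1 and from 1 to 4 with 1 library left out. Leaving out 1 library gave log2 fold changes from -0.029 (without CKO 5) to 3.20 (without CTL 5) for *Dntt*, from -0.029 (without CTL 5) to 0.67 for *Rag1* and from -0.10 (without CTL 2) to 0.25 (without CTL 5) for *Notch1*. The sign of *Notch1* also turned without CTL 1, CTL 4, CKO 4 and CKO 5 (-0.05, -0.02, -0.06 and -0.05). The cause was not tested. The replicate number as a block gave 24 called genes, 3 list genes (without *Ccnd1*, adjusted p = 0.0668, edgeR) and 0 members, and a members' median of 0.46. Same-numbered libraries of the genotypes correlated at 0.01, -0.09, 0.21, 0.00 and 0.19. Of these pairs, only CTL 5 and CKO 5 each had the other as the most correlated library of the other genotype. What the number stands for is not given, and so few correlations cannot decide whether same-numbered libraries were paired. With the block, the log2 fold change of *Dntt* was 1.70 (adjusted p = 0.344, edgeR). Members under 10 CPM rest on as few as 0 counts in a library, which limits their precision.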
